A study of Mus musculus with 6 samples.

Results

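Small nucleolar RNA host transcripts are RNAs whose introns carry small nucleolar RNAs (snoRNAs), and 8 of them, Snhg11, Snhg14, Gas5, Snhg12, Snhg8, Snhg1, Snhg6 and Snhg3, are described here of the 53640 gene symbols that all count tables list. They were chosen by the tau versus control p-value and direction of Snhg11, one of the smallest p-values among genes lower in tau than in control tissue. The tau versus control values of all 8 therefore stand as a description, with no test. RNA was sequenced in 6 libraries of mouse tissue that the labels call PFC, all from mice aged 6 months, with 2 libraries in each of 3 groups. Treated tau tissue came from PS19(P301S) mice that received WDR5-0103, a compound directed at WDR5, a subunit of histone methyltransferase complexes. Tau tissue came from PS19(P301S) mice given vehicle, and control tissue from C57BL/6 x C3H mice given vehicle. In PS19 mice a transgene for human tau with the P301S change is driven by the prion protein gene (Prnp) promoter.

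Most snoRNAs guide ribose methylation or pseudouridylation of ribosomal and other RNAs, and in mammals they are usually cut from introns of a host transcript after splicing. What is left of a noncoding host is often exported and degraded by nonsense-mediated decay, so the level of the spliced host and the levels of its snoRNAs need not go together. Snhg11 is known as a transcript of neurons, and Snhg14 is a very long imprinted transcript, expressed from the paternal allele, whose distal part runs antisense to the ubiquitin ligase gene Ube3a in neurons. Gas5 was first described as a transcript that accumulates in growth-arrested cells.

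In the GENCODE M21 annotation of build GRCm38 (mm10), Snhg11 lies at chr2:158375638-158386145 on the plus strand and is classed as protein coding there, while RefSeq classes it as a long noncoding RNA. It holds 2 snoRNA genes, Gm25187 at chr2:158378222-158378354 and Gm25129 at chr2:158379534-158379666. Both are printed because they are the cargo of the transcript that led to this set, and because the libraries counted one of them and not the other. Capitals mark the closing ACA that gives the H/ACA class of snoRNA its name, in sequences from the GENCODE M21 transcripts.
Gm25187: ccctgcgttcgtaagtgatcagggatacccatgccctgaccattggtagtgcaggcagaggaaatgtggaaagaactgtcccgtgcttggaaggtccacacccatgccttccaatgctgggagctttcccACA
Gm25129: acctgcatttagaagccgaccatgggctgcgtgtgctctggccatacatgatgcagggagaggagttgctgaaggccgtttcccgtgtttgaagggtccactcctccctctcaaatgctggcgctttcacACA
Each is 133 bases long, and 93 of 136 aligned columns were identical between them (68.4%). Gm25187 lies inside an annotated exon of Snhg11, and Gm25129 has no base in one.

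The other members lie on 5 chromosomes. Snhg1 is at chr19:8723475-8726443 on the plus strand, Snhg8 at chr3:123507552-123508404 on the minus strand, and Gas5 at chr1:161034422-161038539 on the plus strand. Snhg6, at chr1:9941959-9944118 on the minus strand, has 11.1% of its exonic bases opposite an exon of Mcmdc2. Snhg12, at chr4:132308623-132311024 on the plus strand, and Snhg3, at chr4:132348014-132353686 on the minus strand, lie near each other. Snhg14 spans chr7:59307924-59975759 on the minus strand, and 6.91% of its exonic bases lie opposite exons of Ube3a. RefSeq gives Snhg14 a longer span, chr7:59272737-60450177, and the Snhg14 start printed below is that of RefSeq, outside the GENCODE span. The strand setting of the authors' counting is not given in the sources used here, so reads of Snhg6, Snhg14 or Snhg3 and of their antisense partners may not have been told apart.

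Several hosts are known as terminal oligopyrimidine genes, whose RNA starts with a C followed by a run of pyrimidines, as RNAs of ribosomal proteins do. The bases around each annotated start are printed because they show which hosts carry such a run. Each line gives 10 bases before the start and 20 from it onward, from RefSeq on GRCm38.p6, and capitals mark a C followed by at least 5 bases that are C or T, searched on the gene's own strand within 10 bases of the start.
Snhg11, chr2:158375703-158375732, plus strand: tgcggcactcactcacgcactcagcctgct
Snhg14, chr7:60450158-60450187, minus strand: gagtgtgattagtcaagtcagtgcagcagg
Gas5, first listed start, chr1:161034591-161034620, plus strand: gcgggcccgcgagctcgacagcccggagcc
Gas5, second listed start, chr1:161035156-161035185, plus strand: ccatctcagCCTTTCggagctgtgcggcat
Snhg12, chr4:132308668-132308697, plus strand: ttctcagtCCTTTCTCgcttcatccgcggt
Snhg8, chr3:123508317-123508346, minus strand: gttcagaagtCTCTTTggctgcgatccgcc
Snhg1, chr19:8723477-8723506, plus strand: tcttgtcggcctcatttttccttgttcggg
Snhg3, chr4:132353667-132353696, minus strand: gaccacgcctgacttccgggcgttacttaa
Of the 7 members with an entry, 3 hold the run at a listed start (Gas5, Snhg12 and Snhg8). Among all 27025 genes with an entry the share was 21.9%, among 62 genes named Rpl or Rps it was 54.8%, and among 34 other listed host genes it was 32.4%. Snhg6 was matched to no start. The match is a description of letters in this window, and the lack of one in the Snhg11 line says only that these letters are not there.

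Summed gene counts were 34774643 and 27772812 in treated tau libraries, 25685236 and 17690811 in tau libraries, and 24525020 and 25264641 in control libraries. The labels give 2 biological replicates per group, so the p-values measure the spread between pairs of libraries. Defining markers of cortical neurons were abundant in every library, with the 6 excitatory markers summing to 2369 to 2863 CPM (counts relative to library size, TMM-scaled). Several other measures also differed between libraries, and their part in the results was not tested. Prnp stood at 1876 and 1594 CPM in treated tau libraries, at 1684 and 1472 CPM in tau libraries, and at 876 CPM in control 2, but the library labelled control 1 had 1654 CPM. The male transcript Ddx3y stood at 108 and 91.2 CPM in treated tau libraries, at 0.391 and 0.115 CPM in tau libraries, and at 0.314 CPM in control 2, but the library labelled control 1 had 95.2 CPM. Between treated tau and tau tissue, treatment and sex cannot be told apart. The 6 oligodendrocyte markers summed to 2350 and 2623 CPM in treated tau, 2228 and 5119 CPM in tau, and 2712 and 1332 CPM in control libraries. The 6 striatal markers summed to 44.3 and 47.7 CPM in treated tau, 65.7 and 115 CPM in tau, and 42.7 and 40.1 CPM in control libraries, and the 4 olfactory bulb markers to 90.4 CPM in the library labelled control 1 and to 2.87 to 5.41 CPM in the other 5.

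Snhg11 was the most abundant member in every library and supplied 60.3% to 70.1% of the reads of all 8. It had 591.9 and 569.3 CPM in treated tau libraries, 508.1 and 478.8 CPM in tau libraries, and 680.6 and 681.0 CPM in control libraries. The 3 groups did not overlap: both tau libraries were lowest, both treated tau libraries lay between, and the control libraries were highest and differed from each other by less than the counting error. In bulk tissue, fewer cells that express a transcript and less of it per cell cannot be told apart.

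The tau versus control difference, which chose Snhg11, was a log2 fold change of -0.46 ± 0.07 (SE of the fit), from 493 ± 20.7 CPM in tau and 681 ± 0.329 CPM in control tissue (mean ± SD, n = 2 each). As a percentage of the control mean, the tau mean differed by -27.5%. The library labelled control 1 stood with the transgenic libraries in Prnp and differed from control 2 in Ddx3y and in oligodendrocyte and olfactory bulb markers, and the Snhg11 level of both was the same to within 1 CPM. Without the library labelled control 1 and tau 2, the difference was -0.42. A choice by small p-value favours a gene whose control libraries lie close together. Neither value therefore tells whether the mismatch of the library labelled control 1 matters for Snhg11, which was not tested.

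In treated tau against tau tissue, Snhg11 averaged 580.6 ± 16.0 CPM in treated tau and 493 ± 20.7 CPM in tau tissue. The log2 fold change was 0.23 ± 0.07, with a 95% interval of 0.08 to 0.39. It did not pass the threshold of an adjusted p under 0.05 over 20694 genes (adjusted p = 0.125, unadjusted 0.00651, edgeR's quasi-likelihood test with Benjamini-Hochberg adjustment). Against control tissue the log2 fold change of treated tau tissue was -0.23 ± 0.07 (95% interval -0.38 to -0.08), which did not pass either (adjusted p = 0.11, same test). These comparisons share the tau and control libraries with the one that chose Snhg11, so a high or low value in a shared library enters both.

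**Figure D1:**
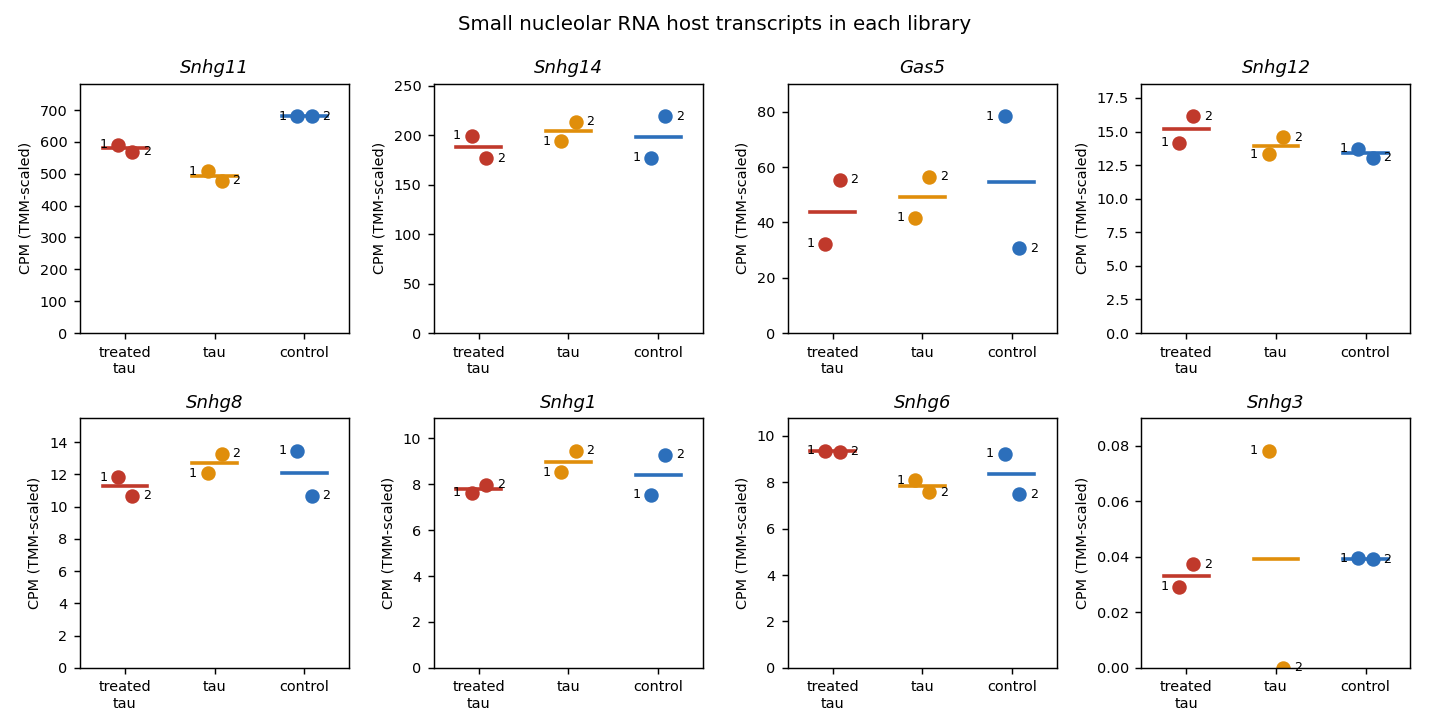
Level of each of the 8 host transcripts in each library, in TMM-scaled CPM on a linear axis from 0; points are libraries, numbered 1 and 2 beside them, and bars are means of 2. Snhg11 separates the 3 groups, from 478.8 CPM in tau 2 to 681.0 CPM in control 2, while the control libraries of Gas5 lie at 78.4 and 30.6 CPM, outside all others.

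Per exonic kilobase of the GENCODE annotation, Snhg11 averaged 68.6 CPM per kb over the 6 libraries (56.2 to 79.9), and no library overlapped the next member. Snhg8 (14.1 CPM per kb), Gas5 (13.1), Snhg14 (7.54), Snhg6 (7.43) and Snhg12 (5.90) followed on the same scale, and each overlapped its neighbour in this order. Snhg1 averaged 2.83 CPM per kb and overlapped neither neighbour, and Snhg3 averaged 0.0378 CPM per kb.

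Snhg14 was the second by reads, with 199.4 and 176.9 CPM in treated tau, 193.7 and 213.8 CPM in tau, and 177.1 and 219.2 CPM in control libraries. All 3 groups overlapped, and the spread of the control pair spanned nearly all other values. The log2 fold change was -0.11 ± 0.11 for treated tau versus tau (95% interval -0.36 to 0.14, adjusted p = 0.804) and -0.07 ± 0.11 for treated tau versus control (adjusted p = 0.803), by edgeR's quasi-likelihood test.

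Gas5 varied more within groups than between them. It had 32.2 and 55.3 CPM in treated tau, 41.6 and 56.6 CPM in tau, and 78.4 and 30.6 CPM in control libraries. The libraries labelled control 1 and control 2 held the highest and the lowest value and differed 2.56-fold. The log2 fold change was -0.16 ± 0.38 for treated tau versus tau (95% interval -1.02 to 0.69, adjusted p = 0.938, edgeR's quasi-likelihood test), which leaves changes of about 1 log2 unit within the interval.

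The 4 smaller hosts stood between 7.49 and 16.1 CPM. Snhg6 had 9.35 and 9.32 CPM in treated tau, 8.10 and 7.57 CPM in tau, and 9.24 and 7.49 CPM in control libraries. Both treated tau values lay above all others, by little over the library labelled control 1, and the treated tau versus tau difference of 0.25 ± 0.17 (log2) did not pass the test (adjusted p = 0.672, edgeR's quasi-likelihood test). Snhg1 had 7.63 and 7.98 CPM in treated tau, 8.53 and 9.46 CPM in tau, and 7.54 and 9.29 CPM in control libraries. Its treated tau values lay below both tau values and within the control range, and the difference from tau of -0.20 ± 0.17 (log2) did not pass either (adjusted p = 0.766).

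Snhg8 had 11.8 and 10.7 CPM in treated tau, 12.1 and 13.3 CPM in tau, and 13.5 and 10.7 CPM in control libraries. Treated tau lay below tau (log2 fold change -0.16 ± 0.16, adjusted p = 0.808, edgeR's quasi-likelihood test) and within the control range. Snhg12 had 14.2 and 16.1 CPM in treated tau, 13.3 and 14.6 CPM in tau, and 13.7 and 13.1 CPM in control libraries, so that treated tau overlapped tau and lay above both control values. The Snhg12 difference from control of 0.17 ± 0.13 (log2) did not pass the test (adjusted p = 0.578). Snhg3 had 1 and 1 reads in treated tau, 2 and 0 reads in tau, and 1 and 1 reads in control libraries. That is under the floor of 3 counts per library, and 60.1% of its 50-base stretches also occur in other genes, mostly in Gm17300 on the opposite strand, so no fold is given.

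**Figure D2:**
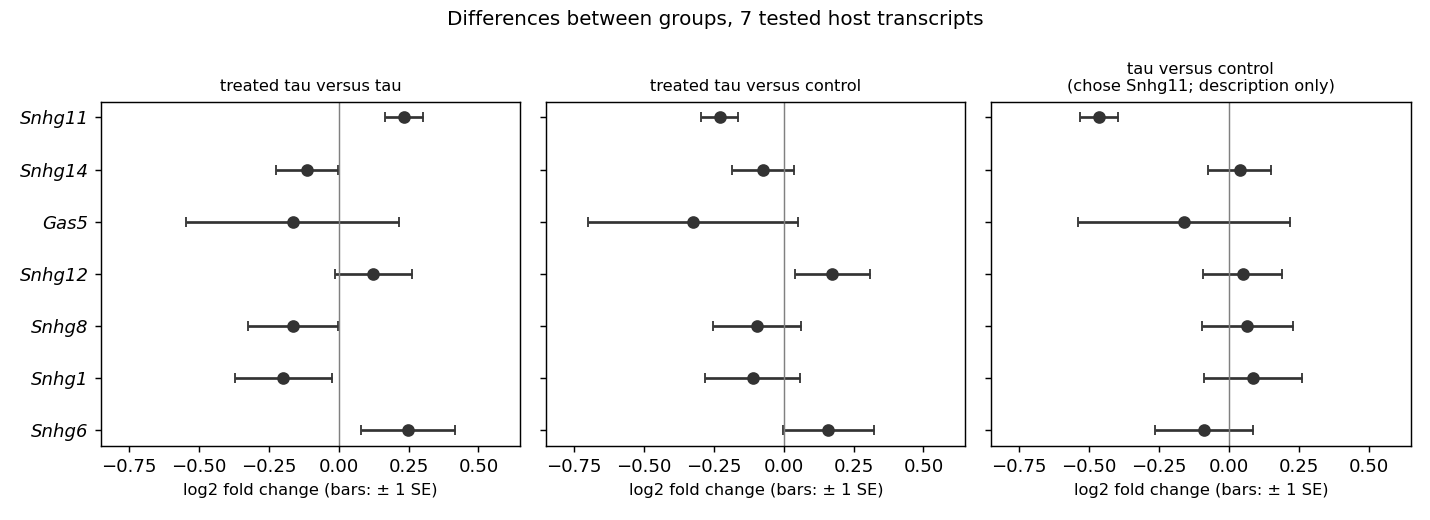
Log2 fold changes of the 7 host transcripts that passed the filter on low counts, for treated tau versus tau, treated tau versus control and tau versus control; points are estimates of the fit and bars are 1 SE to either side. Snhg11 has the smallest SE, 0.07 in each comparison, and Gas5 the largest, 0.38 in treated tau versus tau.

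Counted together, 7 of the 8 members passed the filter, and none was called in treated tau versus tau, where 3.76% of the 20694 genes tested were called, or in treated tau versus control, where 4.22% were. These shares depend on the gene classes tested. With protein-coding and long noncoding genes only, a fit chosen after seeing the data, 50 of 16982 genes were called in treated tau versus tau and 47 in treated tau versus control. In the main fit 1 of the 7 members, Snhg11, had an unadjusted p under 0.05 in each of these comparisons. Among all 20694 genes tested, 2476 had such a p in treated tau versus tau and 3364 in treated tau versus control. DESeq2 and limma-voom also called 0 members. The libraries of treated tau and tau did not overlap for 4 members (2 higher, 2 lower in treated tau), against a background of 41.3% of all genes. Treated tau and control did not overlap for 3 members (2 higher, 1 lower), against 46.3%. Tau and control did not overlap for 1 member, Snhg11, against 41.6%, and that comparison chose it; 0% of genes were called there, with 2059 of 20694 at an unadjusted p under 0.05 and 55 called by DESeq2. The median log2 fold change of the 7 members was -0.11 in treated tau versus tau, -0.10 in treated tau versus control and 0.04 in tau versus control, where the medians of all genes were -0.00605, -0.00685 and -0.00303.

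The members did not move as one set. Over the 6 libraries, Pearson's r of log2 CPM across the 21 pairs of members ran between -0.97 for Snhg1 with Snhg6 and 0.81 for Snhg1 with Snhg14, given as a description over libraries that share group and depth. By the same measure the genes most like Snhg11 were Ndnf (r = 0.995), which encodes a secreted factor that marks a class of layer 1 interneurons, Mettl21a (0.995), a protein lysine methyltransferase, Cacna1c (0.989), the pore subunit of an L-type calcium channel, Zbtb37 (0.985), a zinc finger gene, and Wdr90 (0.978). Ndnf had 29.4 and 27.0 CPM in treated tau, 22.6 and 18.7 CPM in tau, and 39.8 and 37.8 CPM in control libraries. Zbtb37 overlaps the span of Gas5 on the opposite strand without sharing an exon with it, and it had 39.5 and 39.5 CPM in treated tau, 37.2 and 35.4 CPM in tau, and 44.8 and 45.7 CPM in control libraries. These genes were picked for their likeness, so their order of groups is not a result.

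**Figure D3:**
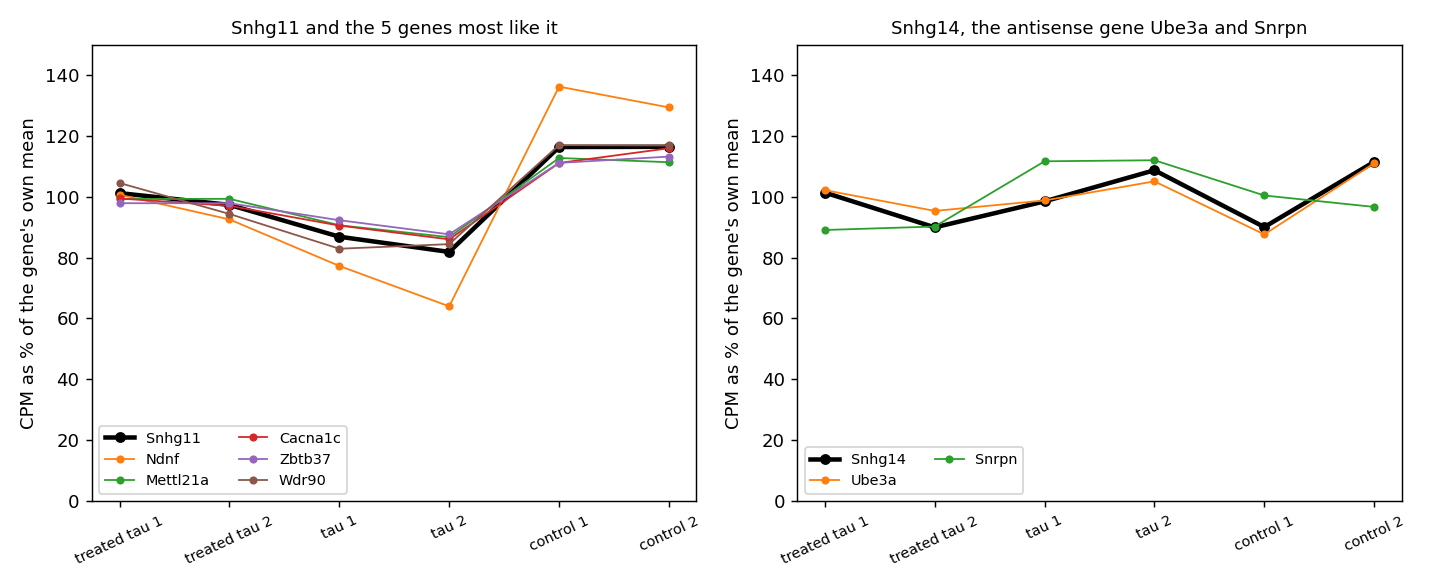
Left, CPM of Snhg11 and of the 5 genes most like it, and right, CPM of Snhg14, Ube3a and Snrpn, each as a percentage of the gene's own mean over 6 libraries; the x axis lists the libraries and lines only join the points of a gene. The left genes are lowest in the tau libraries and highest in the control libraries, and on the right Snrpn is highest in tau 1 and tau 2, at 404.3 and 405.5 CPM.

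GENCODE annotates 239 snoRNA loci inside the spans that GENCODE or RefSeq gives the 8 hosts. Snhg14 holds 210, Gas5 10, Snhg1 8 and Snhg12 5. Snhg11 and Snhg3 hold 2 each, and Snhg6 and Snhg8 hold 1 each. Of those in Snhg14, Snord64 and Snord107 lie in its RefSeq span only, and neither had a read. Their position was set against host exons of GENCODE, which here include exons of transcripts that retain introns. All 28 loci with any base in a host exon had 0 reads in all 6 libraries, and 130 of the 211 loci with no base in one had a read. Reads that lie over both a snoRNA and an exon of its host may not have been counted for the snoRNA. The part of this counting step in the zeros was not tested. Position and host go together in these counts, since Snhg14 holds 208 of the 211 (128 with a read) and 2 of the 28. Of the 3 loci outside exons in other hosts, those in Snhg11 and Snhg6 had reads and that in Snhg3 had none. A library of total RNA fragments is also a poor measure of RNAs this short, so a count of 0 does not show that a snoRNA was absent. The snoRNAs of Gas5, Snhg1, Snhg12, Snhg8 and Snhg3 stood at 0 reads in every library and could not be compared.

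**Figure D4:**
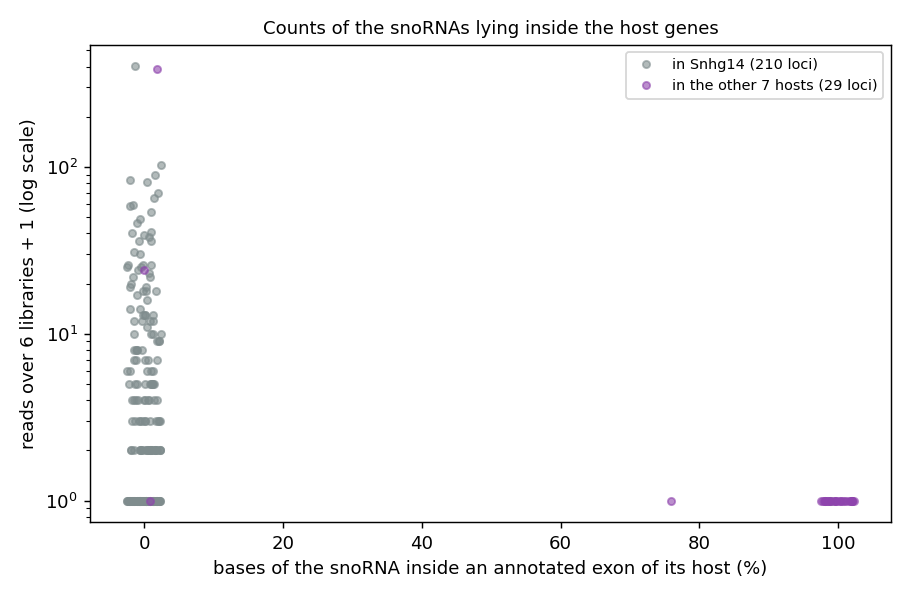
Each of the 239 snoRNA loci inside the GENCODE or RefSeq spans of the 8 hosts, by the percentage of its bases inside a GENCODE exon of its host (x axis, points spread sideways for display) and the reads summed over 6 libraries plus 1 (y axis, log scale). All 28 loci with a base in a host exon stand at 0 reads, where reads shared with the host exon may not have been counted. The highest point, at 400 reads, lies in Snhg14 outside its exons.

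The intronic snoRNA gene of Snhg11, Gm25129, was counted in every library, and Gm25187, which lies inside a host exon, in none. Gm25129 had 2.40 and 1.75 CPM in treated tau, 2.35 and 2.69 CPM in tau, and 2.60 and 3.21 CPM in control libraries. Its treated tau values overlapped those of tau and lay below both control values, and it was not called in treated tau versus tau (adjusted p = 0.864) or in treated tau versus control (adjusted p = 0.465, edgeR's quasi-likelihood test). It was thus not shown to move with or apart from its host. Snord87, a box C/D snoRNA inside Snhg6, had 6 and 4 reads in treated tau, 2 and 1 in tau, and 1 and 9 in control libraries.

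Most of the 210 snoRNA loci of Snhg14 belong to tandem arrays of like copies (130 are 79 bases long and 68 are 94 bases long), between which reads may not have been told apart. Their summed level was 17.7 and 14.8 CPM in treated tau, 11.1 and 10.7 CPM in tau, and 12.6 and 15.1 CPM in control libraries. Treated tau lay above tau, and control overlapped treated tau. Per 1000 reads of Snhg14 itself, the sum was 88.7 and 83.5 in treated tau, 57.1 and 49.9 in tau, and 71.3 and 68.7 in control libraries, with no overlap between the 3 groups. Since the sum was formed over the loci of a chosen member, it has no test.

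The 12 loci that passed the filter did not show this order. They summed to 7.13 and 7.05 CPM in treated tau, 6.88 and 7.05 CPM in tau, and 7.97 and 8.31 CPM in control libraries. Per 1000 reads of Snhg14, their sum was 35.8 and 39.8 in treated tau, 35.5 and 33.0 in tau, and 45.0 and 37.9 in control libraries. By that measure treated tau lay above tau, by little in treated tau 1, and overlapped control. None of the 12 was called in either comparison with treated tau tissue, with a smallest adjusted p of 0.32 against tau and 0.237 against control (edgeR's quasi-likelihood test); the most read was Gm24966, at 2.37 and 2.87 CPM in treated tau, 1.99 and 2.46 CPM in tau, and 2.84 and 2.98 CPM in control libraries. The other 11, Gm22496, Gm25648, Gm26498, Gm24862, Gm26466, Gm25229, Gm26337, Gm25175, Gm24495, Gm25870 and Gm22373, stayed under 1 CPM in each library.

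In CPM, the difference between treated tau and tau lay mostly in the 198 loci below the filter. These stood at 10.6 and 7.72 CPM in treated tau, 4.18 and 3.61 CPM in tau, and 4.66 and 6.74 CPM in control libraries. Of all 210 loci, 102 and 84 had a read in treated tau libraries, 52 and 42 in tau libraries, and 52 and 64 in control libraries. The treated tau tables also list another set of symbols (54134) than the tau and control tables (54429), and the treated tau libraries were deeper; treatment and a change in how these tables were made cannot be told apart.

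Snhg14 shares its locus with Snrpn, a paternally expressed gene for a spliceosomal protein, and with Ube3a. The near end of Snrpn lies 6736 bases upstream of the GENCODE span of Snhg14 and inside its longer RefSeq span. Snrpn had 322.5 and 326.7 CPM in treated tau, 404.3 and 405.5 CPM in tau, and 363.6 and 350.0 CPM in control libraries. It was lower in treated tau than in tau tissue (log2 fold change -0.32 ± 0.07, adjusted p = 0.0288, edgeR's quasi-likelihood test), with 26.5% of its 50-base stretches shared with other genes, and without any 1 of the 4 treated tau and tau libraries it was no longer called, nor with protein-coding and long noncoding genes only. Ube3a had 301.9 and 281.7 CPM in treated tau, 291.9 and 310.5 CPM in tau, and 258.9 and 328.1 CPM in control libraries, and control 2 was above the library labelled control 1 for both Ube3a and Snhg14, which share antisense bases. Of the 5 genes of the locus that were tested, Snrpn alone was called in treated tau versus tau; 0 were called in treated tau versus control, where 0 had an unadjusted p under 0.05 and DESeq2 called 0. Of the 19 tested neighbours and overlapping genes of the 8 members, Snrpn was again the 1 called in treated tau versus tau. Over all genes tested, 3.76% were called in that comparison.

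Of 12 other noncoding genes listed as hosts and tested, 9 of which hold an annotated snoRNA, 0 were called in either comparison with treated tau tissue by edgeR, DESeq2 or limma-voom, with 1 at an unadjusted p under 0.05 in treated tau versus tau and 0 in treated tau versus control. Smallest p-values against tau belonged to Rian, an imprinted transcript with many box C/D snoRNAs (log2 fold change -0.29 ± 0.10, adjusted p = 0.222), and to Snhg5 (-0.42 ± 0.20, adjusted p = 0.455, edgeR's quasi-likelihood test). Rian had 505.9 and 524.0 CPM in treated tau, 606.3 and 651.8 CPM in tau, and 464.3 and 574.6 CPM in control libraries, overlapping between treated tau and control. Against control, the smallest belonged to Snhg9, under 1 CPM in every library (adjusted p = 0.448), and to Snhg15 (-0.42 ± 0.25, adjusted p = 0.468).

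Some hosts that also code for a protein were called. Of 26 tested, 4 were lower and 0 higher in treated tau than in tau tissue, and 1 was lower and 2 higher in treated tau than in control tissue. Over all 20694 genes tested, 140 were called lower and 639 higher in treated tau versus tau (3.76% together). In treated tau versus control, 186 were called lower and 687 higher (4.22% together). In tau versus control, edgeR and DESeq2 called 0 of these 26 and 0 of the 12 noncoding hosts, with 6 and 2 at an unadjusted p under 0.05. Rpl4 had 295.2 and 302.2 CPM in treated tau, 419.1 and 389.6 CPM in tau, and 363.7 and 341.4 CPM in control libraries, with both treated tau values below all others. Among those lower in treated tau than in tau tissue were Rpl4, a protein of the large ribosomal subunit (-0.44, adjusted p = 0.00878), the translation helicase Eif4a1 (-0.42, adjusted p = 0.0292) and Rps3 (-0.33, adjusted p = 0.041, edgeR's quasi-likelihood test). Among those higher in treated tau than in control tissue was Rpl10 (0.90, adjusted p = 0.0319, same test). Between 3.21% (Rps3) and 33.5% (Rpl10) of the 50-base stretches of these 4 coding hosts occur in other genes. How reads were split between copies may bear on their counts, which was not tested. Rps3 and Eif4a1 lost their calls without any 1 of the 4 libraries compared, Rpl4 without tau 1, treated tau 1 or treated tau 2, and Rpl10 without control 1, control 2 or treated tau 2. With protein-coding and long noncoding genes only, a fit chosen after seeing the data, these 4 were not called either, and with no filter on low counts Rps3, Eif4a1 and Rpl10 were not.

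Over all genes tested, 3.76% were called in treated tau versus tau and 4.22% in treated tau versus control, beside which the counts here are to be read. Among 19 tested proteins of the snoRNA particles, Fbl, the methyltransferase fibrillarin of box C/D particles, was the 1 called. It had 1.75 and 2.05 CPM in treated tau, 5.48 and 4.30 CPM in tau, and 3.83 and 4.59 CPM in control libraries, with both treated tau values below all others. The log2 fold change was -1.40 ± 0.26 against tau (adjusted p = 0.0158) and -1.16 ± 0.26 against control (adjusted p = 0.0387, edgeR's quasi-likelihood test); 19.7% of its 50-base stretches occur elsewhere. Against tau it was called in 11 of 15 alternative settings, lost without treated tau 1, treated tau 2 or tau 1 and with protein-coding and long noncoding genes only. Against control it was called in 7 of 15, lost, among others, without any 1 of the treated tau and control libraries, with only the 2 groups compared, with no filter on low counts and with protein-coding and long noncoding genes only. Of 14 tested genes of nonsense-mediated decay, Eif4a3, the helicase of the exon junction complex, was lower in treated tau than in tau tissue (-0.65 ± 0.15, adjusted p = 0.0429, same test), a call kept in 8 of 15 alternative settings and lost, among others, without any 1 of the 4 libraries compared, with no filter on low counts and with protein-coding and long noncoding genes only; against control 0 of 14 were called by edgeR and limma-voom, with 2 at an unadjusted p under 0.05, and 1 by DESeq2.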

How the data were processed

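The deposited values are raw read counts per gene symbol, with 1 table per library and no normalization. Per the labels' protocols, libraries were strand-specific total RNA depleted of ribosomal RNA, trimmed with Cutadapt and aligned with TopHat2; featureCounts, SAMtools, TopHat2, edgeR and mm10 are named in the submitters' processing notes. The sources used here give no versions, strand setting or treatment of multiply aligned reads. Library numbers follow the titles, and 4 file headers carry other numbers.

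Counts of the 53640 symbols shared by the 6 tables (symbols outside held 0.333% to 0.352% of counts) were filtered with filterByExpr (minimum count 10), TMM-scaled and tested two-sided with edgeR 4.0.16 (glmQLFit, glmQLFTest, legacy off; R 4.3.3) in 1 fit of 3 groups, with 3 residual degrees of freedom. Adjusted p is the Benjamini-Hochberg value over 20694 genes, and called means under 0.05. The script was tested on simulated data with the same dispersion for every gene, which tells nothing about the spread of these libraries. Without molecular identifiers, the floor of 3 counts covers counting error only. DESeq2 1.42.0, limma 3.58.1, other filters, a replicate block and leaving out libraries were alternatives.

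The members, lists and rules were chosen with earlier results of these data known. Named from each list were up to 4 called genes of smallest p, or the 2 of smallest p where none was called, and, for likeness, the 5 genes with the highest r among those at an average log2 CPM of at least 1 (prior count 2). Some genes counted in the lists are not reported here by name.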

Additional observations from a re-analysis of the deposited data

How the results depend on the processing

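The count of called members was 0 in treated tau versus tau and in treated tau versus control under every alternative run. Over those alternatives the log2 fold change of Snhg11 ran between 0.19 and 0.28 for treated tau versus tau (adjusted p 0.0773 to 0.483) and between -0.26 and -0.20 for treated tau versus control (adjusted p 0.0764 to 0.489). Tau versus control for Snhg11 ran between -0.50 and -0.42 when 1 library was left out, and was -0.42 without both the library labelled control 1 and tau 2. That comparison chose Snhg11, so these values are a description only. Of 315 values of single members, 292 had the sign of the reported value and 23 the opposite one, 11 of these in the comparisons with treated tau tissue and 12 in tau versus control. Leaving out 1 library, Gas5 ran between -0.60 and 0.19 for treated tau versus tau (0.069 without tau 2, 0.19 without treated tau 1) and between -0.84 and 0.51 for treated tau versus control (0.51 without control 1, 0.029 without treated tau 1). For treated tau versus control, Snhg8 ran between -0.25 and 0.087 (the highest without control 1), Snhg1 between -0.25 and 0.052 (the highest without control 2) and Snhg14 between -0.22 and 0.092 (the highest without control 2, and 0.015 without treated tau 2). Without both control 1 and tau 2, Gas5 was at 0.067 against tau and 0.51 against control, Snhg8 was at 0.085 against control, and 6 other hosts were called against tau. The cause was not tested.

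The number of other hosts called, 4 in treated tau versus tau and 3 in treated tau versus control, was 2 and 1 with no filter on low counts and 1 and 1 with protein-coding and long noncoding genes only, a fit chosen after seeing the data. With only the 2 groups compared it was 1 for treated tau versus control. Leaving out 1 library it ran between 1 and 5 for treated tau versus tau and between 1 and 3 for treated tau versus control. Libraries with the same number in their titles did not deviate together (correlations 0.01, -0.01 and 0.07). With 2 libraries per group, this cannot show whether the samples were paired. With a replicate block, 0 members and 5 and 3 other hosts were called, Snhg11 in tau versus control was at -0.46, and 709 and 796 genes were called in all, against 779 and 873 without the block. Under the block, Fbl against control (adjusted p = 0.0657) and Eif4a3 against tau (adjusted p = 0.079) were not called, while the other genes named as called kept their calls (edgeR). Snhg3 and most snoRNA loci had too few reads to compare.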
